A study of Mus musculus with 8 samples.

Results

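Autosomal gene expression was compared between round spermatids of Hr6b knockout mice and of wild type mice. The 4 arrays of this comparison, 2 of knockout and 2 of wild type cells, are the spermatid arrays among 8 in the series, and the other 4 measured late spermatocytes of the same genotypes. Knockout cells came from Hr6b-/- males and wild type cells from Hr6b+/+ males, both on the FVB background and aged 4 to 5 weeks. They were released from the testis with collagenase and trypsin, separated by sedimentation at unit gravity and purified on Percoll, so each array reads a cell fraction and not a pure cell type. Every cell of the knockout mouse lacks the gene, the supporting cells of the testis included. The number of mice behind an array is not given in the sources used here, and the p-values cover nothing beyond the variation between the samples in hand.

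HR6B, encoded by Ube2b, is a ubiquitin-conjugating enzyme that works with ubiquitin ligases, among them those that modify histones. Round spermatids are the haploid cells that follow meiosis. They still transcribe many genes, some of them for proteins made only later, before the histones give way to transition proteins and protamines and the nucleus condenses. Male mice without HR6B are infertile.

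Signal stands here for the deposited value on the linear scale, and a log2 difference is knockout minus wild type. Each gene on chromosomes 1 to 19 was read from the probe set with the highest mean over the spermatid arrays, which gave 17516 autosomal genes, and 9059 of them, with a mean signal of at least 100, are called expressed below. A gene was called when limma gave it an adjusted p under 0.05 (Benjamini-Hochberg over all probe sets), and "rose" and "fell" are used for called genes alone. Permuting 2 arrays against 2 allows no exact p below 0.333, so the calls rest on the spread that limma shares across genes. The arrays of a group correlated at 0.995 in the knockout and 0.996 in wild type across genes, which are not independent replicates.

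Ube2b read 951 and 1061 on the knockout arrays against 4599.5 and 4612 on the wild type arrays. The groups did not overlap, the log2 difference was -2.20 (standard error 0.12, adjusted p = 4.51e-05 from limma), and its 4 probe sets were all called lower, as the labels require. Markers of round spermatids had a summed signal of 171801 to 189345 on the 4 spermatid arrays and of 14774 to 22680 on the spermatocyte arrays, so the cell type label holds against them. Markers of late spermatocytes did not separate the fractions, with sums of 170971 to 181000 and of 156784 to 171262. In such bulk fractions, fewer cells of a type and less RNA per cell cannot be told apart.

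In knockout spermatids, 1218 of the 17516 autosomal genes (6.95%) rose and 2236 (12.8%) fell. Among expressed genes 743 (8.2%) rose and 1923 (21.2%) fell. Both knockout arrays lay above both wild type arrays for 5375 autosomal genes (30.7%) and below them for 5725 (32.7%), and among expressed genes these shares were 26.0% and 50.7%. Genes that are not expressed leaned upward, with 475 of 8457 called higher and 313 lower. For 3016 of them both knockout arrays lay above and for 1134 below, and their median log2 difference was 0.096. Every called gene was without overlap between the groups. Most changes were small: the median log2 difference was 0.66 among genes that rose and -0.64 among those that fell, and 227 and 269 genes changed at least 2-fold. The counts that rose and fell were 568 and 860 without replicate 1 of the knockout, 692 and 1596 without replicate 2 of the knockout, 598 and 1014 without replicate 1 of wild type, and 640 and 1188 without replicate 2 of wild type. No gene changed its direction among the calls when an array was left out.

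The direction of the majority depended on how the arrays were scaled. The medians set equal below are those of autosomal probe sets with a mean signal of at least 100 over all 8 arrays. These probe sets are not the expressed genes defined above. Their median log2 signal was 8.425 and 8.483 on the knockout arrays and 8.685 and 8.689 on the wild type arrays. In the deposited values 64.7% of the called genes were lower. That share was 42.0% after cyclic loess normalization, 47.3% after quantile normalization and 19.3% with the expressed medians set equal, so that the majority turned under each of them. Setting the medians equal moved the median log2 difference of all autosomal genes from 0.013 to 0.246, and changes under it are relative to that. For expressed genes this median moved from -0.136 to 0.097. The shares called higher and lower were then 26.9% and 6.42%, against 8.89% and 6.44% after cyclic loess and 9.08% and 8.15% after quantile normalization. More autosomal genes thus rose than fell under each of the 3, so the same order in a list is not particular to it. No gene was called in the opposite direction under any of the 3. Of the genes that rose, 992 (81.4%) rose under all 3 as well, and of those that fell, 921 (41.2%) also fell under all 3. Gene lists are described below by their counts in the deposited values and under these scalings, and members named are those with the largest log2 difference that meet the rule given with the methods. Most lists had fewer calls without any single array, and the lowest such count is given with its array.

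The log2 differences of the 15 genes with the largest rise ran from 1.97 to 2.78. Ripor2, whose product restrains the GTPase RhoA, had 1592 and 2071 in the knockout and 323 and 297 in wild type, a log2 difference of 2.55 (standard error 0.21, adjusted p = 0.000181 from limma). Gsdmd encodes the gasdermin that forms pores in pyroptosis. It gave 362 and 373 in the knockout against 76.1 and 81.5 in wild type, a log2 difference of 2.22 (standard error 0.12). Dscaml1, an adhesion molecule of the immunoglobulin superfamily, gave 822 and 877 against 215 and 219, and 2 of its 5 probe sets were called higher. All 3 genes had at least 3 times the wild type signal on each knockout array.

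Vgll2, a cofactor of TEAD transcription factors, read 186 and 287 in the knockout against 46.2 and 46.7 in wild type. Pcdh17, a protocadherin gene, had 136 and 171 against 34.2 and 29.6. Pla1a, which encodes a phospholipase, had 273 and 319 against 74.1 and 75.7. In wild type these genes lay under the signal of 100 used for expression, and both knockout arrays were above it. The same held for Lum, the gene of the collagen-binding proteoglycan lumican, with 206 and 189.6 in the knockout and 46.9 and 54.2 in wild type. Klk1 and Klk1b5, of the tissue kallikreins, rose by 2.08 and 2.03 on the log2 scale. Kallikrein genes have near-identical copies that the probes may not separate, so these names are uncertain, and so are those of Chil3, a chitinase-like gene with a log2 difference of 2.01, and of Gsdmc2 below. Nptx2, Fcmr, Sptlc3, Cd24a and Aard complete the 15. Aard, a testis gene that is also on the Sertoli list used here, had 132 and 155 against 33.7 and 30.1 in spermatids, while its spermatocyte signals were far higher, at 1098 and 1683 in the knockout and 1307 and 1979.5 in wild type.

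The 15 autosomal genes with the largest fall besides Ube2b had log2 differences of -1.72 to -2.81. P4ha2, a collagen prolyl hydroxylase of the endoplasmic reticulum, gave 87.5 and 75.8 in the knockout and 307 and 348 in wild type, a log2 difference of -2.0 (standard error 0.14, adjusted p = 8.62e-05 from limma). Cdh11, a cadherin gene, gave 114 and 129 against 447 and 368. Lrp2, which encodes the endocytic receptor megalin, gave 39.2 and 46.8 against 146 and 157. For each gene both knockout arrays were below both wild type arrays.

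Snapc3, a subunit of the complex that starts transcription of small nuclear RNA genes, had 81.2 and 93.2 in the knockout and 286 and 322 in wild type, and its 4 probe sets were all called lower. Tanc1, a scaffold protein of synapses, had 108 and 142 against 450.2 and 438. Epgn, a ligand of the epidermal growth factor receptor, had 78.5 and 76.2 against 268 and 243. None of these ranges overlapped. Ctso, a cysteine protease gene, and Tmtc2, of protein O-mannosylation, had log2 differences of -2.01 and -1.97, and Fam187a had -1.88. Pdzph1, Gsdmc2, Parp8, Lrp11, Gmds and 1 gene with a clone name make up the rest. All 15 genes that rose and all 15 that fell were called the same way under the 3 scalings, and none had another probe set called the other way. Other probe sets of some genes were not called. The probe sets called were 1 of 4 for Ripor2, 1 of 3 for Lrp2 and 1 of 2 for Nptx2, Pcdh17, Sptlc3, Ctso, Tmtc2, Tanc1 and Cdh11.

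**Figure D1:**
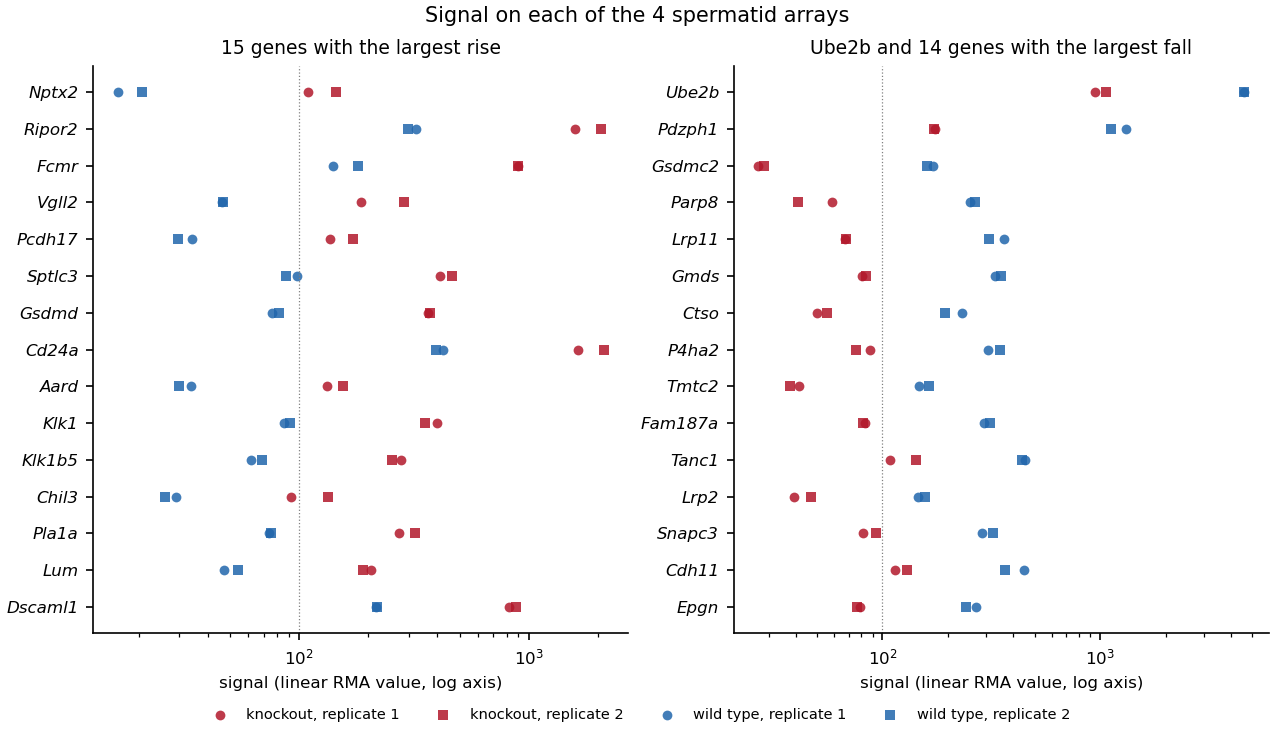
Signal (linear RMA value on a log axis) on each of the 4 spermatid arrays for the 15 autosomal genes with the largest rise (left) and for Ube2b and the 14 genes with a proper symbol among the 15 with the largest fall (right). Circles are replicate 1 and squares replicate 2, red is knockout and blue wild type, and the dotted line marks a signal of 100, with no overlap of the genotypes for any gene.

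Markers of elongating spermatids leaned higher in the knockout. Of 31 measured, 9 rose and none fell, 29 had both knockout arrays above both wild type arrays and none had both below, and the median log2 difference was 0.42. All 31 are expressed genes, of which 8.2% rose over the whole set, with 26.0% above and 50.7% below. Under cyclic loess, quantile normalization and equal medians, 13, 10 and 17 rose and none fell. The number that rose was 7 without replicate 1 of the knockout and 6 without any other single array. Tssk6, a kinase gene needed for the packing of sperm chromatin, had 6577 and 6916 in the knockout and 2525 and 2814 in wild type, a log2 difference of 1.34 (standard error 0.18, adjusted p = 0.00166 from limma). Oxct2a, a testis enzyme gene for the use of ketone bodies, had 7910.5 and 7598 against 3209 and 3284. Fscn3, a fascin gene that bundles actin in the testis, had 3348 and 3887 against 1464 and 1416. The other 6 that rose had log2 differences of 0.64 to 1.10.

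The genes of the main chromatin proteins of late spermatids were not called. Prm1 and Prm2, the protamine genes, had log2 differences of 0.20 and 0.42, and Tnp1 and Tnp2, for transition proteins, of 0.21 and 0.45. Prm1 gave 32476 and 33039 in the knockout against 29367 and 27752 in wild type. Tnp2 gave 23170 and 26137 against 17735 and 18188. These 4 genes were among the brightest of the list, whereas none of the 9 that rose was above 5604 in wild type, and the part of the signal level in this split was not tested. Summed over the list, the signal was 400011 and 405122 in the knockout and 305091 and 314629 in wild type, a ratio of 1.30. The same sum on the spermatocyte arrays was 75388 and 61720 in the knockout and 42039 and 34898 in wild type. For Tssk6, Oxct2a and Fscn3 the difference did not depend detectably on the cell type (adjusted p = 0.307, 0.17 and 0.815 from limma).

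The promoters of Oxct2a and Tssk6 are shown because these genes had the largest rises of the list with the short form of the cyclic AMP response element near the start, the element that the spermatid activator CREM binds. Of the 17516 autosomal genes, 13917 had a promoter window from RefSeq (GRCm38.p6), 250 bases before to 50 bases after the start, and 30% of these windows hold the short form TGACG on either strand. Capitals mark it, and both windows are written along the gene's own strand. The Oxct2a window is chr4:123323630-123323929 on the minus strand, with the short form beginning 1 base before the start. The Tssk6 window is chr8:69901934-69902233 on the plus strand, with the short form beginning 73 bases before the start.
Oxct2a: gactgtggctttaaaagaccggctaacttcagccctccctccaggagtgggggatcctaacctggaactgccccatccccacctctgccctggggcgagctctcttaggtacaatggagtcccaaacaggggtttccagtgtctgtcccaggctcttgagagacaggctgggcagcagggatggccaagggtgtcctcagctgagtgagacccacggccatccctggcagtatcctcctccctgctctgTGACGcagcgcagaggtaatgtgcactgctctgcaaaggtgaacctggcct
Tssk6: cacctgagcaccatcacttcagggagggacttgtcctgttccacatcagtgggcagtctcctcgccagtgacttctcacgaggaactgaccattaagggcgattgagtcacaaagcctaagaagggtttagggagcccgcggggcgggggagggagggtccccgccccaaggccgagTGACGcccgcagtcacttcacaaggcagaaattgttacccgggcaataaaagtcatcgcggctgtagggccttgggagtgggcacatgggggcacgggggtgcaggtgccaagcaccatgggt
The window of Fscn3 does not hold these letters. Of the 26 elongating spermatid markers with a window, 6 (23.1%) hold the short form and none holds the full element TGACGTCA, which 3.0% of all windows hold. A CpG-rich window, with at least 50% GC and an observed over expected CpG of at least 0.6, was lacking in 21 (80.8%) of them, against 42.1% of all windows. Among expressed genes 40.9% of those that rose and 25.7% of those that fell lacked one, against 28.1% of all expressed genes. The short form was in 31.8% of the former and 37.3% of the latter, against 36.3%. A match of letters is a description of the window and not a binding site.

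Round spermatid markers moved little. Of 26, 2 rose and 1 fell, with a median of -0.04, and Tssk6 was 1 of the 2 that rose since it is on both lists; 1 rose whichever array was left out. The other was Actl9, an actin-like gene of the acrosome region, with 5951 and 5974 in the knockout and 3896 and 4220.5 in wild type. Spata16, a gene of acrosome formation, fell from 3956 and 3986 to 2546 and 2834. Crem, the activator gene, had 5118 and 5452 against 6361 and 6030.0, a log2 difference of -0.23 that was not called. Of the 30 markers of pachytene and late spermatocytes, 9 fell and none rose, with a median of -0.16. Among the 29 that are expressed 8 fell, against 21.2% of all expressed genes. Mesp1 had the largest fall, from 4070.4 and 4121 to 2185 and 2165. The median turned to 0.07 after cyclic loess and with equal medians, where 1 and 2 fell and 2 and 3 rose, and it was -0.10 after quantile normalization, with 6 lower. With replicate 1 of the wild type spermatids left out, 1 of the 30 fell. Of 30 markers of spermatogonia and early spermatocytes, 3 rose and none fell, with a median of 0.03, and 14 were under 100 on all 4 arrays. Among the 15 that are expressed 2 rose and none fell, against 8.2% and 21.2% of all expressed genes. Of these 15, 3 had both knockout arrays above both wild type arrays and 9 below, against 26.0% and 50.7%. Their median was -0.25, against -0.136 for all expressed genes.

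**Figure D2:**
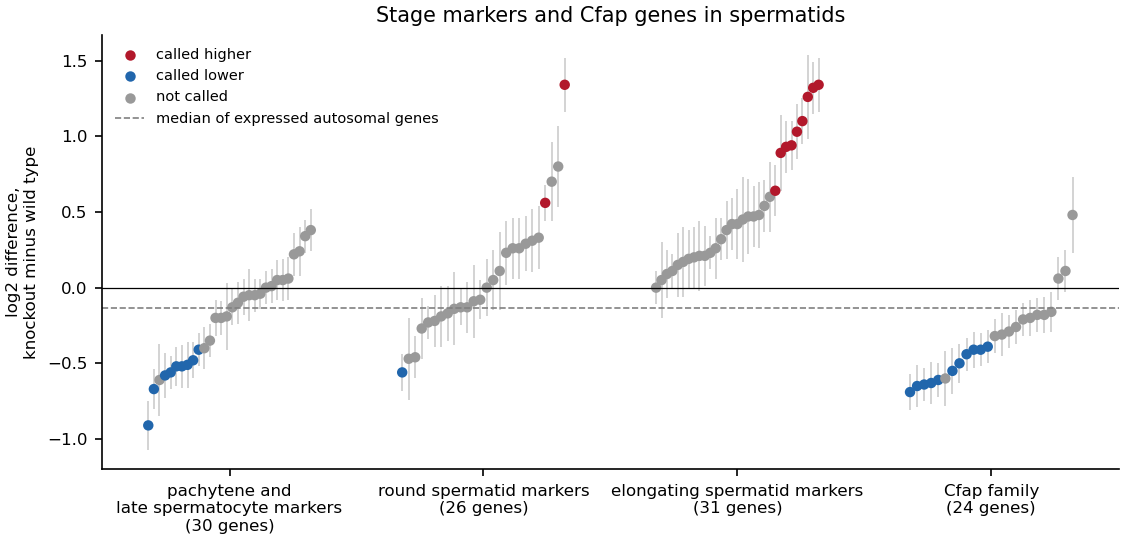
Log2 difference (knockout minus wild type spermatids, y axis) of every measured gene of 3 stage marker lists and of the Cfap family, sorted within each list. Points are genes, vertical lines are standard errors from limma, red and blue points were called higher and lower, and the dashed line is the median of expressed autosomal genes (-0.136). No elongating spermatid marker lies below 0, and 21 of the 24 Cfap genes have both knockout arrays below both wild type arrays.

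Genes marking other cells of the testis were mostly dim. Of 27 Sertoli cell markers, 15 were under a signal of 100 on all 4 arrays, among them Sox9, Wt1, Gata4, Fshr and Cldn11, which define the cell. The list still leaned upward, with 6 higher, 1 lower and a median of 0.35, where 6.95% of all autosomal genes rose. Among its 9 expressed members 1 rose and 1 fell. Its summed signal was 3119 and 3172 in the knockout and 2572 and 2693 in wild type. Inha, an inhibin subunit gene, rose from 70.8 and 65.2 to 143 and 142, and Amhr2, a receptor gene for anti-Müllerian hormone, from 157 and 149.6 to 250.1 and 306. Tjp1, of tight junctions, fell. When replicate 1 of the knockout was left out, 4 Sertoli markers rose. Macrophage and leukocyte markers had 18 of 26 under 100 on all 4 arrays and summed to 2414 and 2393 in the knockout and 2476 and 2367 in wild type. Of the 26, 3 rose and 2 fell, against 6.95% and 12.8% of all autosomal genes, and the median was 0.15. Both knockout arrays lay above both wild type arrays for 14 and below for 3, against 30.7% and 32.7%. Among the 7 expressed members 2 rose and 1 fell. C1qb, a complement gene, rose from 83.5 and 72.0 to 172 and 217, and Adgre1 from 137 and 147 to 215 and 217. Fcgr3, an Fc receptor gene, fell from 934 and 858 to 539 and 559.6. Myoid markers summed to 8207 and 8430 against 5597 and 6058, most of it from Actg2, a smooth muscle actin gene, which was at 7110.3 and 7379 against 4625 and 4927. In spermatids Actg2 was not called in the deposited values (adjusted p = 0.0507 from limma). It was called higher under all 3 scalings (adjusted p of 0.0113 to 0.0418 from limma). On the spermatocyte arrays it had 338 and 234.5 in the knockout and 106 and 82.5 in wild type (log2 difference 1.59, adjusted p = 0.00294 from limma). The myoid sum thus follows 1 gene, and 6 of the 13 markers, Myh11 and Cnn1 among them, were under 100 on all 4 spermatid arrays. Leydig and endothelial markers had ratios of 1.05 and 1.08. The part of these cells in the results below was not tested.

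Genes of the transcription machinery were called lower more often than higher in the deposited values. Of 95 genes of Mediator and the general factors of RNA polymerase II, 30 (31.6%) fell and none rose, and the median was -0.26. The 88 expressed members had 29 lower, where 21.2% of all expressed genes fell and 8.2% rose. Med23 and Med27, both Mediator subunits, had 171 and 165 and 334 and 318 in the knockout, against 361 and 346 and 699 and 628 in wild type. Ccnc, the cyclin of the Mediator kinase module, fell by 1.01 on the log2 scale. These 3 were called lower under every scaling. The list as a whole was not, with 8 lower and 8 higher after cyclic loess, 11 and 3 after quantile normalization and 8 and 13 with equal medians. In the absence of replicate 1 of the knockout, 9 fell, and 20 fell without replicate 2 of the knockout.

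Ribosome assembly and the factors of RNA polymerases I and III gave 19 (19.2%) lower and 2 higher of 99. Of the 87 that are expressed 18 fell, a share near the 21.2% of all expressed genes. Wdr75, a nucleolar protein gene of ribosomal RNA transcription, fell from 576 and 557 to 203 and 278, and Polr1a, the large subunit of RNA polymerase I, from 377 and 336 to 215 and 231. Nhp2, a protein of the small nucleolar particles that make pseudouridine, rose from 663 and 699 to 1229.5 and 1367. Here too the list turned after scaling, to 4 lower and 7 higher after cyclic loess and to 8 and 13 with equal medians, and it kept 8 lower and 6 higher after quantile normalization. With replicate 1 of the knockout left out, 4 fell.

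Nuclear pore genes were among the 4 of 57 lists with more members lower than higher in the deposited values and under all 3 scalings. By the same rule 14 of the 57 lists had more members higher than lower throughout. Of 30 nuclear pore genes 9 (30%) fell and none rose, 19 had both knockout arrays below both wild type arrays, and the median was -0.32. The 28 expressed members held all 9 and all 19, where 21.2% of expressed genes fell, 8.2% rose and 50.7% lay below. After cyclic loess 4 fell and none rose, after quantile normalization 5 and none, and with equal medians 6 and 2. Without replicate 1 of the knockout 5 fell. Nup160 and Nup155, both scaffold proteins of the pore, had 1029 and 1163 and 256 and 333 in the knockout, against 2095 and 1956 and 543 and 491 in wild type. Ddx19b, a helicase that releases messenger RNA at the pore, fell from 447 and 428 to 279.7 and 277. The wild type arrays were above the knockout arrays for all 3 genes.

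The DEAD and DEAH box helicases, which remodel RNA, were another of the 4 lists. Of 53, 10 (18.9%) fell and 1 rose, and all 10 were among the 46 expressed members, a share near the 21.2% of all expressed genes. The median was -0.26, and the counts were 6 and 2, 7 and 2, and 7 and 4 under cyclic loess, quantile normalization and equal medians. With replicate 1 of the knockout left out, 6 fell. Ddx42, a splicing helicase, fell from 348 and 309 to 151 and 179. Ddx6, of the cytoplasmic bodies that store messenger RNA, fell from 302 and 223 to 118 and 147. Dhx58, an RNA sensor of the antiviral response, fell by 0.98 on the log2 scale. Eif4a2, a helicase of translation initiation, was the 1 that rose, from 1414 and 1311 to 1886 and 2329. The Rbm family of RNA-binding motif genes had 13 of 34 (38.2%) lower, 1 higher and a median of -0.36. Its 25 expressed members had 13 lower and 1 higher, against 21.2% and 8.2% of all expressed genes. Rbm39, a splicing coactivator with 12 probe sets of which 7 were called lower, fell from 762 and 952 to 402 and 505, and Rbm4b rose by 0.55. Under the same scalings 5, 8 and 7 Rbm genes fell and 2, 1 and 5 rose, and without replicate 1 of the knockout 4 fell.

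Genes of cohesin, condensin and DNA methylation changed in both directions. Of 35, 6 fell and 3 rose. The 6 were all among the 27 expressed members, a share near the 21.2% of all expressed genes. Again 6 fell under each scaling, with 3, 3 and 5 higher under cyclic loess, quantile normalization and equal medians. The paired factors of DNA methylation moved apart. Dnmt3a, a methyltransferase gene, rose from 135 and 138 to 322 and 273 (log2 difference 1.12, standard error 0.14, adjusted p = 0.00112 from limma). Dnmt3l, the gene of its cofactor, fell from 689 and 834 to 372 and 364 (log2 difference -1.04, standard error 0.13, adjusted p = 0.00123 from limma). In spermatocytes their log2 differences were -0.03 and -0.10, and the effect differed between the cell types for both (adjusted p = 0.0168 and 0.0275 from limma). Ncapd2, a condensin subunit, fell from 1127 and 1237 to 611 and 658, and Esco1, which acetylates cohesin, by 0.78 on the log2 scale. Rad21, a cohesin subunit, had 1939 and 2086 in the knockout against 1434 and 1447, but the mean of its 3 probe sets had a log2 difference of -0.02. When replicate 1 of the knockout was left out, 3 of the list fell and 1 rose.

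Histone modifiers and chromatin remodellers were called lower mostly at a share near the background of 21.2% of expressed genes. Of 58 histone lysine methyltransferases 12 (20.7%) fell and 1 rose, against 12.8% and 6.95% of all autosomal genes. The 37 expressed members had 9 lower and none higher, with a median of -0.25 against -0.136 for all expressed genes. Prdm4 fell from 907 and 921 to 519.5 and 522, and Kmt2e, of the trithorax group, from 374 and 362 to 186 and 250.3. Histone demethylases were the exception, with 9 of 25 (36.0%) lower and 1 higher, and with 8 of the 17 expressed members lower. Kdm7a, which removes repressive methyl marks, fell from 228 and 249 to 142 and 142 and kept its call under every scaling. Kdm5a, for H3K4 methyl marks, fell from 249.8 and 217 to 126 and 159 and kept it under none. Jmjd6 rose by 0.62 on the probe set used, and on the probe set that is brightest over all 8 arrays its log2 difference was 0.00. Of 88 remodeller and Polycomb genes, 14 (15.9%) fell and 5 rose, and among the 69 that are expressed 13 fell and 2 rose. Baz2b, a bromodomain gene with 3 of 5 probe sets called lower, fell from 544 and 633 to 215 and 237. Smarca4, an ATPase of the SWI/SNF complex, fell from 1417 and 1451 to 777 and 780.0. Chd7, also a remodeller, rose from 76.1 and 81.3 to 138 and 152. Demethylases turned to 4 higher and 3 lower after quantile normalization and were equal, 4 and 4, with equal medians. Methyltransferases had 10 higher and 7 lower and remodellers 12 and 8 with equal medians, while both kept more lower than higher after cyclic loess and quantile normalization. In the absence of replicate 1 of wild type, 3 demethylases and 7 remodellers fell, and without replicate 1 of the knockout 6 methyltransferases.

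Genes of protein folding in the endoplasmic reticulum formed the last of the 4 lists that stayed lower, besides nuclear pore, helicase and cohesin genes. Of 66, 14 (21.2%) fell and 1 rose, and of the 58 expressed members 13 fell, a share at the 21.2% background of expressed genes. In all 44, and 40 of the expressed members, had both knockout arrays below both wild type arrays, against 50.7% of expressed genes. The median was -0.23. Scaling left 6, 9 and 7 lower and 4, 3 and 6 higher under cyclic loess, quantile normalization and equal medians, and 4 fell without replicate 1 of wild type. Pdia3, a disulfide isomerase, fell from 2885 and 3057 to 1349.6 and 1862. Uggt2, related to the sensor of glycoprotein folding, fell from 579.5 and 604 to 332 and 314. Edem3, a mannosidase for misfolded glycoproteins, fell by 0.83 and Herpud2, of protein degradation at this membrane, rose by 0.84.

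The coats and tethers that carry proteins from the endoplasmic reticulum to the Golgi gave 20 of 65 (30.8%) lower and 1 higher. For 47 of them both knockout arrays were below both wild type arrays. The 55 expressed members had 18 called lower and 42 below, against 21.2% and 50.7% of all expressed genes. Arcn1, the delta subunit of the COPI coat, fell from 1397 and 1274 to 730.2 and 808, and Sec24c, of the COPII coat, from 1227 and 1184 to 727 and 709.7. Sar1a, the GTPase that starts the COPII coat, was the gene that rose, from 3432 and 3541 to 4576 and 4907. The counts of genes lower and higher were level, 5 and 5, after cyclic loess, 8 and 3 after quantile normalization, and 6 and 7 with equal medians. With replicate 1 of the knockout left out, 5 fell. Enzymes that build glycan chains divided into 11 lower and 5 higher of 109. The 42 expressed enzymes had 10 lower and 3 higher, near the 21.2% and 8.2% of all expressed genes. Ndst3 and Galnt7 fell by 1.36 and 1.17 and Ext1, of heparan sulfate synthesis, rose by 0.69. With equal medians these enzymes turned to 25 higher and 8 lower, and they kept 7 and 9 lower and 5 and 7 higher under the other scalings and 7 lower without replicate 1 of the knockout.

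**Figure D3:**
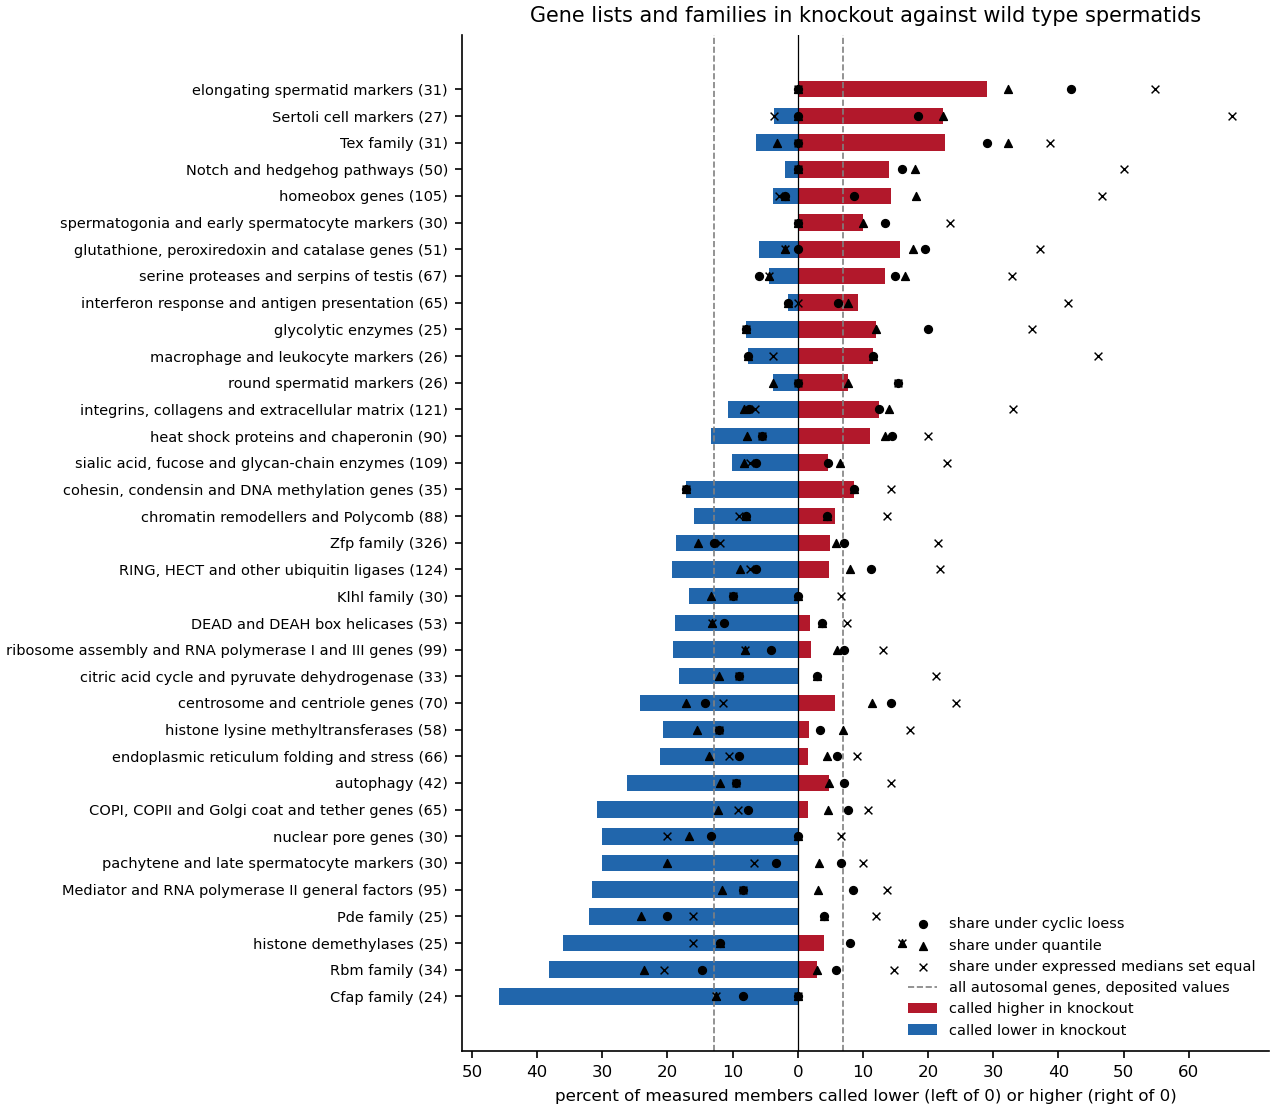
Percent of the measured members of each described list or family (number in brackets) called lower (bars left of 0) or higher (bars right of 0) in knockout spermatids. Symbols give the same share after cyclic loess, quantile normalization and with the expressed medians set equal, and the dashed lines are the 12.8% and 6.95% of all autosomal genes. Elongating spermatid markers have calls only to the right and Cfap genes only to the left under every scaling.

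The Cfap genes, named for cilia and flagella, had calls in 1 direction only. Of the 24 Cfap genes, all expressed, 11 (45.8%) fell and none rose, against 21.2% and 8.2% of expressed genes. Both knockout arrays were below both wild type arrays for 21 of them (87.5%), against 50.7% of expressed genes, and the median was -0.35. Cfap97 had 5168 and 5356 in the knockout and 9011 and 7964 in wild type, a log2 difference of -0.69 (standard error 0.12, adjusted p = 0.00455 from limma). Cfap161, of the microtubule interior of the axoneme, had 3331 and 3572 against 5456 and 5302. Cfap43, needed for the sperm flagellum, had 1558 and 1695 against 2575 and 2538 and was not called under any scaling. The family had none higher under any scaling. The number lower was 2, 3 and 3 under cyclic loess, quantile normalization and equal medians, and 2 without replicate 1 of wild type. Of all 9059 expressed genes 811, 1064 and 947 fell under these scalings, so the share of the family that fell was then near theirs. The family median was -0.12, -0.28 and -0.12, against 0.065, -0.012 and 0.097 for all expressed genes.

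Centrosome and centriole genes gave 17 of 70 (24.3%) lower and 4 higher. The 57 expressed members had 17 lower and 2 higher, against 21.2% and 8.2% of all expressed genes. Rttn, Cep290 and Cep350, whose products build centrioles, the ciliary gate and microtubule anchors, had 136 and 182, 277 and 354, and 452 and 484 in the knockout, against 356 and 348, 650.5 and 668, and 954 and 865 in wild type. Pcnt, the scaffold of the material around the centrioles, rose from 852 and 902 to 1476 and 1637, and Tubg1, gamma-tubulin, from 351 and 397 to 514 and 507. The list was level, 10 and 10, after cyclic loess, had 12 lower and 8 higher after quantile normalization, and turned to 17 higher and 8 lower with equal medians. Without replicate 1 of the knockout 9 fell.

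Ubiquitin ligases of the RING, HECT and related classes were measured for 124 genes, of which 24 (19.4%) fell and 6 rose, and 22 of the 99 expressed members fell, near the 21.2% of all expressed genes. Wwp2, a HECT ligase, rose from 1075 and 1174 to 2468 and 2579 on 1 of its 6 probe sets, and the effect differed between spermatids and spermatocytes (adjusted p = 0.00764 from limma). Marchf5, a ligase of the outer mitochondrial membrane, rose from 1519 and 1504 to 2269 and 2481. Rnf146, which marks ADP-ribosylated proteins, fell from 1426 and 1288 to 637 and 724, and Rnf180 from 254 and 192 to 85.3 and 84.3. The balance turned to 14 higher and 8 lower after cyclic loess and to 27 and 9 with equal medians, and was 10 and 11 after quantile normalization. The number that fell was 10 without replicate 1 of the knockout. The Klhl family, whose members hand substrates to cullin 3 ligases, had 5 of 30 lower and none higher. Among its 13 expressed members 4 fell, against 21.2% of all expressed genes. Under the scalings 3, 4 and 3 of the family fell and 0, 0 and 2 rose. The family had 3 lower whichever array was left out. Klhl21 fell from 320.0 and 287 to 154 and 149.

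Genes of autophagy gave 11 of 42 (26.2%) lower and 2 higher. The 31 expressed members had 10 lower and 1 higher, against 21.2% and 8.2% of all expressed genes. Ulk1, the kinase that starts the process, fell from 220.5 and 246 to 108 and 115, and Atg14, of the lipid kinase complex, from 129 and 126 to 73.0 and 64.1. Nbr1, a cargo receptor, rose by 0.63 on the probe set used, while its other probe set was called lower. After cyclic loess 4 fell and 3 rose, after quantile normalization 5 and 2, and with equal medians the order turned to 4 and 6. When replicate 1 of the knockout was left out, 5 fell.

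Metabolic genes did not move as 1 group. Of 33 genes of the citric acid cycle and pyruvate dehydrogenase 6 (18.2%) fell and none rose, and all 6 were among the 27 expressed members, near the 21.2% of expressed genes. Idh1, the cytosolic isocitrate dehydrogenase, fell from 445 and 380.3 to 177 and 194, Me3, a mitochondrial malic enzyme, by 1.12 and Sdhd, a subunit of succinate dehydrogenase, by 0.64. With equal medians 7 rose and 3 fell, while 3 and 4 fell and 1 rose under the other scalings, and without replicate 1 of the knockout 3 fell. Of 25 glycolytic enzymes 3 rose and 2 fell, and more rose than fell under every scaling, as over all autosomal genes. The 20 expressed enzymes held all these calls, where 8.2% of expressed genes rose and 21.2% fell. The order turned to 1 higher and 2 lower without replicate 2 of either genotype and was level, 2 and 2, without replicate 1 of wild type. Pkm, pyruvate kinase, rose from 1064 and 1364 to 2321 and 2235, and Tpi1, triose phosphate isomerase, from 4067 and 4298 to 5422 and 5558. Pfkm, a phosphofructokinase, fell from 2550.2 and 2493 to 1550.4 and 1595.

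Genes of glutathione, peroxiredoxins and catalase leaned upward, with 8 of 51 (15.7%) higher and 3 lower, against 6.95% and 12.8% of all autosomal genes. The 28 expressed members had 5 higher and 3 lower, against 8.2% and 21.2% of all expressed genes. Mgst2, a membrane glutathione transferase, rose from 272 and 194 to 637 and 599, and Gsr, which regenerates glutathione, from 175 and 168 to 341 and 348. Gclc, of the first step of glutathione synthesis, fell from 219 and 216 to 132 and 157. Under cyclic loess, quantile normalization and equal medians 10, 9 and 19 rose and 0, 1 and 1 fell. In the absence of replicate 2 of wild type, 2 rose. Heat shock and chaperonin genes were nearly balanced, with 12 of 90 lower and 10 higher. They turned to more higher than lower under each scaling, as all autosomal genes did. Among the 76 that are expressed 12 fell and 9 rose, against 21.2% and 8.2% of all expressed genes. Hspd1 and Hspe1, the neighbouring genes of the mitochondrial chaperonin and its partner, rose from 247 and 262 to 490.1 and 546 and from 335 and 340.4 to 613 and 732. Hspa1l, a germ cell member of the Hsp70 family, rose from 3433 and 3469 to 6967 and 7151. Dnajb5 and Hspb7 fell by 1.08 and 1.21 on the log2 scale. With replicate 1 of the knockout left out, 3 rose and 3 fell.

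Homeobox genes, which pattern the embryo and were mostly dim in spermatids, leaned upward. Of 105 homeobox genes 15 (14.3%) rose and 4 fell, against 6.95% and 12.8% of all autosomal genes, and 49 had both knockout arrays above both wild type arrays. Six2 had 599 and 479 in the knockout and 161 and 181 in wild type, Nkx6-1 had 306 and 302 against 116 and 149, and Hoxc9 had 570.4 and 532 against 246 and 246. Lhx2 fell from 278 and 306 to 162 and 179. Of the 35 that are expressed by the rule used here, 8 rose and 4 fell, where 8.2% and 21.2% of all expressed genes did. Among the 8457 autosomal genes that are not expressed, 475 rose and 313 fell. Under cyclic loess, quantile normalization and equal medians 9, 19 and 49 rose and 2, 2 and 3 fell, and without replicate 1 of the knockout 7 rose. Genes of the Notch and hedgehog pathways gave 7 of 50 higher and 1 lower, with a median of 0.21, against the same shares of all autosomal genes. Among the 21 that are expressed 5 rose and 1 fell, against 8.2% and 21.2% of all expressed genes. Jag1, a Notch ligand, rose from 186 and 163 to 449 and 465, Hey1, a Notch target, from 146 and 134 to 246 and 207, and Sufu, which holds back hedgehog signals, from 1705 and 1793 to 3342 and 3404. Of this list 8, 9 and 25 rose and none fell under the scalings, and without replicate 1 of the knockout 2 rose.

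Interferon response and antigen presentation genes had both knockout arrays above both wild type arrays for 31 of 65 (47.7%) and below for 2 (3.08%), against 30.7% and 32.7% of all autosomal genes. Of these 65, 6 (9.23%) rose and 1 fell, where 6.95% of all autosomal genes rose. The 17 that are expressed had 11 above and 1 below, against 26.0% and 50.7% of all expressed genes. Among the 8457 autosomal genes that are not expressed, 3016 lay above and 1134 below. Oasl1, an interferon-induced gene, rose from 82.9 and 75.8 to 267 and 269.5, and Ifngr2, a subunit of the interferon gamma receptor, from 297 and 263 to 535 and 595, while Mx1, also interferon-induced, fell from 140.2 and 169 to 101 and 88.9. Under cyclic loess, quantile normalization and equal medians 4, 5 and 27 of the 65 rose, where 8.89%, 9.08% and 26.9% of all autosomal genes did. The counts after cyclic loess and quantile normalization lie below these shares. Without replicate 1 of the knockout 2 rose. Integrin, collagen and matrix genes were divided, with 15 of 121 higher and 13 lower. Among the 38 that are expressed 7 rose and 9 fell, against 8.2% and 21.2% of all expressed genes. Lum and Tgfbi rose, the latter from 232 and 229.9 to 446 and 467, while Fn1, fibronectin, fell from 754 and 861 to 249 and 264, Postn, periostin, from 582 and 529 to 189.9 and 223, and Col3a1, a collagen of connective tissue, from 149 and 143 to 71.0 and 52.7. More rose than fell under each scaling, as over all autosomal genes, with 15, 17 and 40 higher and 9, 10 and 8 lower. The shares of all autosomal genes that fell were then 6.44%, 8.15% and 6.42%. Without replicate 1 of the knockout 9 matrix genes rose, and without replicate 2 of wild type 6 fell.

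Genes that take their names from the testis moved both ways. Of 31 Tex genes 7 (22.6%) rose and 2 fell. The 29 expressed members held all these calls, where 8.2% of expressed genes rose and 21.2% fell. Tex44 rose from 806 and 897 to 2105 and 1940.2, Tex46 from 517 and 545 to 1135 and 1359.7, and Tex55 from 804 and 837 to 1695 and 2016, whereas Tex15, a regulator of transposon silencing in the male germ line, fell from 3668 and 3689 to 2584 and 2569.9. The scalings gave 9, 10 and 12 higher and 0, 1 and 0 lower, and without replicate 2 of the knockout 4 rose. The serine proteases and serpins of the testis gave 9 of 67 higher and 3 lower. Among the 27 that are expressed 6 rose and 3 fell, against 8.2% and 21.2% of all expressed genes. Prss51, Prss41 and Prss58 rose by 1.13, 1.05 and 1.04, and Prss44, Prss46 and Prss42, 3 related testis genes, fell by 1.02, 0.95 and 0.88 on the log2 scale. The scalings gave 10, 11 and 22 higher and 4, 3 and 3 lower. Calls were level, 3 and 3, without replicate 1 of the knockout and turned to 3 higher and 4 lower without replicate 1 of wild type. The phosphodiesterases of the Pde family, which break down cyclic nucleotides, had 8 of 25 lower and none higher. Among its 15 expressed members 6 fell, against 21.2% of all expressed genes. Pde4b fell from 200.1 and 183 to 57.4 and 68.3 and Pde10a from 595 and 669.9 to 369 and 401, and the family kept 5, 6 and 4 lower and 1, 1 and 3 higher under the scalings. When replicate 1 of the knockout was left out, 4 fell. Zinc finger genes of the Zfp family had 61 of 326 (18.7%) lower and 16 higher. Among its 137 expressed members 46 fell and 8 rose, against 21.2% and 8.2% of all expressed genes. Zfp367 fell from 598 and 435 to 157 and 204 and Zfp943 from 629.6 and 554 to 205 and 248, while Zfp618 rose from 195 and 186 to 385 and 475. With equal medians this family turned to 70 higher and 39 lower, and it kept more lower under cyclic loess and quantile normalization, with 42 and 50. In the absence of replicate 1 of the knockout, 30 fell and 7 rose.

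Among expressed genes the share that fell grew with gene length. In 5 groups of 1811 or 1812 genes, with median lengths of 3.8, 11.3, 22.5, 42.7 and 111.9 kb by the RefSeq annotation, 12.9%, 17.1%, 21.3%, 25.8% and 29.1% fell, and the median log2 difference went from -0.02 in the shortest to -0.23 in the longest. The share that rose was 11.2% in the shortest group and 7.34% in the longest, with 6.13% in the fourth. The order of the share that fell was the same after cyclic loess (5.02% to 13.8%), quantile normalization (7.06% to 16.6%) and with equal medians (5.79% to 15%). It was also the same among genes with a wild type spermatocyte signal of at least 100 (14.2% to 32%) and under 100 (8.4% to 19.6%). Genes are not independent replicates, so no p is given. Over the 19 autosomes the share of expressed genes that fell ranged from 15.5% to 28.4%.

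The calls also differed with the signal in wild type spermatocytes, which are arrays outside the comparison of spermatids. Of the 1687 expressed spermatid genes with a wild type spermatocyte signal under 100, 21.7% rose and 12.8% fell. Of the 2280 with 1600 or more, 1.49% rose and 21.8% fell. Genes that are dim in spermatocytes held 366 of the 743 expressed genes that rose. In the same 2 groups 24.2% and 6.75% rose after cyclic loess, 30.3% and 2.54% after quantile normalization, and 43.4% and 9.87% with equal medians, so the order of the groups was kept. The share that fell was highest in the group of 800 to 1600 (29.4%) and did not change evenly.

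**Figure D4:**
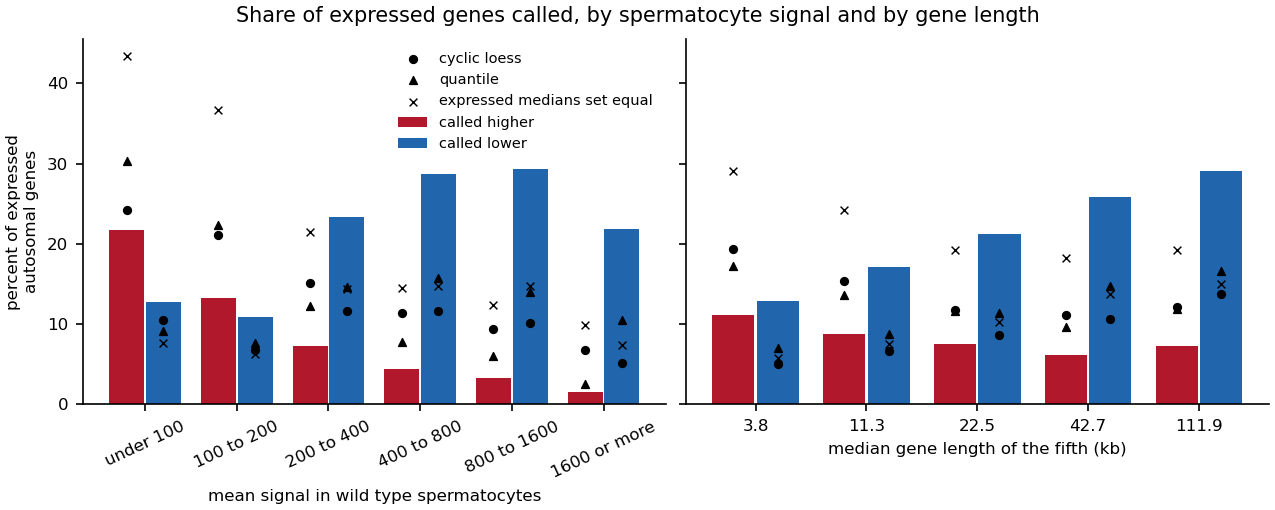
Percent of expressed autosomal genes called higher (red bars) and lower (blue bars) in knockout spermatids, by mean signal in wild type spermatocytes (left) and by gene length in 5 equal groups (right). Black symbols give the same shares under the 3 other scalings. The share called lower grows from 12.9% to 29.1% with length, and the share called higher falls from 21.7% to 1.49% with spermatocyte signal.

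The largest changes were set beside the same genes on the spermatocyte arrays. Of the 15 genes with the largest rise, 14 had a mean wild type spermatocyte signal under 100, 13 had the same sign in spermatocytes and 4 were called higher there. Of the 15 with the largest fall, 10 were under 100, 11 had the same sign and 3 were called lower. With limma's adjusted p under 0.05, the difference between cell types passed for 13 of each 15 and for 1181 (6.74%) of all autosomal genes. The 30 genes were chosen for their difference in spermatids, which is part of what this test measures, so nothing is read from that count. The 4 that did not pass were Ripor2, Cd24a, Pdzph1 and Tanc1, chosen for naming after their values were seen. Ripor2 and Tanc1 had log2 differences of 1.52 and -1.18 in spermatocytes, and adjusted p = 0.0758 and 0.162 for the difference between cell types from limma.

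**Figure D5:**
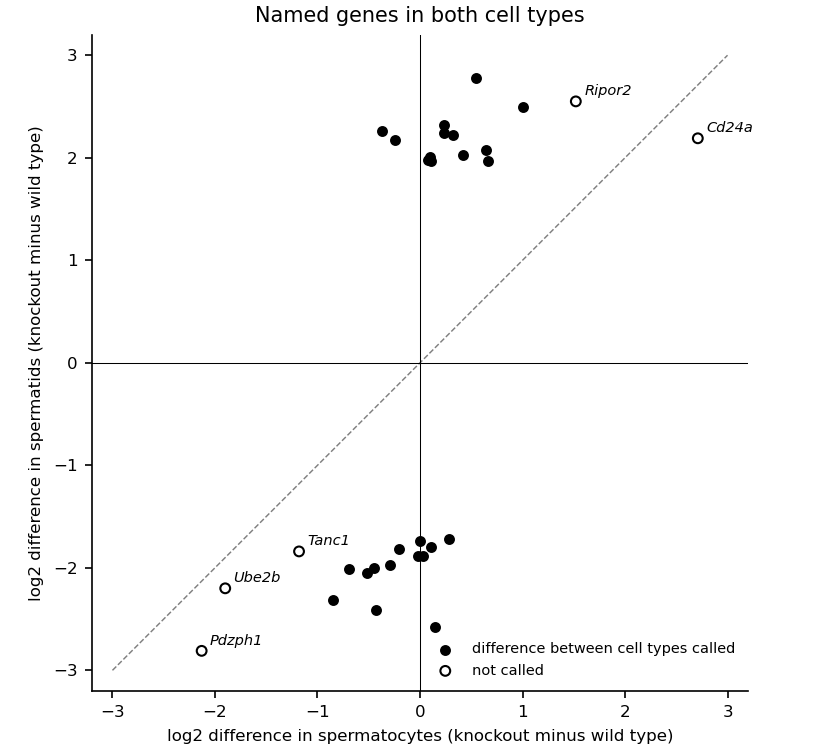
Log2 difference (knockout minus wild type) in spermatids (y axis) against that in spermatocytes (x axis) for Ube2b and the 15 autosomal genes with the largest rise and the 15 with the largest fall in spermatids. Filled points are the 26 genes whose difference between cell types was called, open points were not called and carry names, and the dashed line marks equal differences.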

How the data were processed

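RNA of the isolated cells was hybridised to Affymetrix Mouse Genome 430 2.0 arrays. The deposited values are log2 signals that the authors made from the scanned arrays with RMA, which corrects the background, equalises the arrays and summarises each probe set; RMA and limma are named in the submitters' processing notes without versions. They were used with no further normalization. limma 3.58.1 (R 4.3.3) fitted 1 mean per group to all 8 arrays, with Benjamini-Hochberg adjustment over 45037 probe sets, control probe sets excluded. Fits were tested on simulated data. Of the probe sets, 34945 had 1 gene in the platform annotation, 932 several and 9160 none; 34741 were matched to current symbols and chromosomes by gene ID and 143 by symbol, and 61 were not in the table. Gene symbols of the array annotation can be old. Depth has no counterpart on arrays, and 2 arrays per group limit the precision. Between 33.2% and 35.4% of probe sets per array had a signal of 100 or more.

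Named genes were Ube2b and, in each direction, the 15 autosomal genes with the largest log2 difference among called genes without overlap and with a mean signal of at least 100 in the higher group. Each list or family described names up to 3 members per direction by the same rule, and defining markers are given as values. Lists (57, plus 10 of cell type markers) were written by hand, and families (61) are symbols sharing a stem, with at least 20 genes measured and 10 expressed. No set test was run. The members and lists were chosen with earlier results of these data known. Alternatives were cyclic loess, quantile normalization, equal medians of expressed genes, spermatids fitted alone, a filter on signal, a replicate block, each spermatid array left out, a prior variance that follows signal, and 2 other rules for the probe set of a gene.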

Additional observations from a re-analysis of the deposited data

Results flagged for a closer look

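For 26 of the 30 genes with the largest changes in spermatids, the effect of the genotype differed between spermatids and spermatocytes at an adjusted p under 0.05 from limma. These genes were chosen for their difference in spermatids, which enters this test, so the number that passed is no finding. The value given is the log2 difference in spermatids minus that in spermatocytes. Among genes that rose in spermatids it was 2.63 for Pcdh17, 2.41 for Aard, 2.23 for Nptx2, 2.09 for Vgll2, 2.01 for Sptlc3, 1.91 for Chil3, 1.90 for Gsdmd and Pla1a, 1.86 for Lum, 1.61 for Klk1b5, 1.5 for Fcmr, 1.44 for Klk1 and 1.31 for Dscaml1. Among genes that fell in spermatids it was -2.73 for Gsdmc2, -2.0 for Epgn, -1.98 for Parp8, -1.92 for Snapc3, -1.91 for Fam187a, -1.86 for 4930545L23Rik, -1.74 for Cdh11, -1.68 for Tmtc2, -1.62 for Lrp2, -1.56 for P4ha2, -1.53 for Gmds, -1.46 for Lrp11 and -1.33 for Ctso. All 4 spermatocyte arrays were under a signal of 100 for 12 of the 15 genes that rose and 10 of the 15 that fell. Groups of 2 arrays are too small to single out an array that stands apart.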

How the results depend on the processing

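Scaling turned the direction of the calls. Genes called lower went from 2236 to 1128 after cyclic loess, 1428 after quantile normalization and 1124 with the expressed medians set equal, and genes called higher from 1218 to 4704 under the last. The share of called genes that were lower turned from 64.7% to 42.0%, 47.3% and 19.3%, and the median log2 difference of expressed genes from -0.136 to 0.065, -0.012 and 0.097. Genes without overlap became 10375 above and 2997 below with equal medians. Of the 57 lists, 39 had more members lower than higher in the deposited values and 16, 25 and 4 under the same scalings, and of the 61 families 48 against 19, 31 and 6. Genes whose effect differed between cell types numbered 1181 in the main analysis, 674 after cyclic loess, 1974 with equal medians, 2149 with the filter on signal, 1926 with a prior variance that follows signal and 760 with a replicate block. The filter left 2478 genes with both knockout arrays above. With 1 array left out, 568 to 692 genes were called higher, 860 to 1596 lower, and 198 to 663 differed between cell types. The difference between replicates 1 and 2 in knockout spermatids correlated at r = -0.293 with that in wild type spermatids, across probe sets. That value cannot show whether arrays were processed in pairs, and the labels do not say. The replicate block called 1023 higher and 1827 lower. With the crossed pairing, chosen after seeing the data, 1150 were higher and 2146 lower.

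Of 179 genes named or listed as examples, none was called in the other direction under any alternative. Jmjd6 had a log2 difference of 0.00 with the probe set brightest over all 8 arrays and Rad21 of -0.02 with the mean of its probe sets, in both cases with the sign turned and no call. Calls were lost for 17 of them after cyclic loess, 10 after quantile normalization, 10 with equal medians, 25 besides Rad21 with the mean of all probe sets and 30 to 47 with 1 array left out. Ube2b and the 30 top genes kept their calls, except Klk1 with the probe set brightest over all 8 arrays (adjusted p = 0.174 from limma) and Chil3, which the filter on signal left out. Causes were not tested. The 2 arrays per group limit the precision, and a probe set under a signal of 100 says little about change.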
